A study of Manis javanica with 3 samples.

Results

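Collagens, laminins and the other proteins of the extracellular matrix were described here in 3 tissues of the Malayan pangolin (*Manis javanica*). The genes were found by symbol in the Swiss-Prot entry of the deposited annotation: COL, LAMA, LAMB or LAMC followed by a digit, any symbol that begins with FBN, FBLN, THBS, MMP or TIMP, and FN1, ELN, SPARC, LUM, DCN, BGN, TNC and POSTN. Of 24220 genes with expression values, 128 met this rule. A further 2 genes of the annotation did so, MMP8 and a NOTCH4 gene under a matrix symbol, and they are not analysed here. Small intestine, salivary glands and liver were taken from 1 adult female, a wild individual that died during rescue and was dissected soon after death, so the tissues share its state at death and no treatment was compared. Messenger RNA was captured with poly-T beads and sequenced on an Illumina HiSeq instrument. Each tissue gave 1 library, so no difference below has a replicate check and no p-value is given. The counts on genes summed to between 8318686 and 14568778 per library.

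The extracellular matrix is the protein scaffold around and beneath cells. Fibrillar collagens form the tensile fibres of connective tissue, whereas type IV collagen and laminins form the sheet-like basement membrane under epithelia and around muscle fibres and vessels. Matrix metalloproteinases (MMPs) cut these proteins, and the tissue inhibitors of metalloproteinases (TIMPs) block the MMPs. In the gut wall, smooth muscle cells and fibroblasts are known sources of matrix, and in the liver hepatocytes secrete plasma fibronectin while stellate cells deposit most of the collagen.

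The Swiss-Prot symbols often stood for a relative of the gene. Of the 17135 Swiss-Prot entries in the annotation 0 were human and 0 were mouse, and the 128 genes carried 43 symbols, of which 22 were held by more than 1 gene. TNC was held by 13 genes, FBN1 by 11 and MMP14 by 10. Each gene is therefore called by the protein named in its NR entry, or in its KEGG or Swiss-Prot entry for 5 genes. By these names 45 genes were the one of their symbol and 83 were another. A total of 100 genes encoded matrix proteins, their enzymes or inhibitors, and 28 encoded other proteins with similar repeats, among them NOTCH1, NOTCH2, NOTCH3, the netrin receptors UNC5A to UNC5D, the teneurins TENM1 to TENM4 and SCUBE1 to SCUBE3. Genes with the symbol ELN (elastin) or POSTN (periostin) numbered 0.

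The labels of the libraries were compared with marker genes. The liver library carried its own markers, while the library labelled small intestine held gastric genes at high levels, with an FPKM (mapped fragments per length of transcript and depth of library) of 94138 for pepsin A, 43108 for the chitinase CHIA and 1073 for the proton pump ATP4A, more than in the other libraries. Of 14 enterocyte genes, those named FABP1, FABP2 and LCT had a count of 0 in all 3 libraries, liver included, while the villin-1 gene (VIL1) had FPKM values of 24.0, 25.7 and 21.2 and SLC5A1 had 1.94, 0.221 and 0.457. The library is called that of the small intestine below because that is its label. The same library was rich in smooth muscle genes. Hepatocyte markers were at least 2-fold higher in the liver library than in the small intestine library for 12 of 13 genes, beside 23.9% of all genes. Of 5 salivary markers, AQP5 reached an FPKM of 94.3 and PIP 28.0 in the salivary gland library, while LPO was at 0.175 and both BPIFA1 genes had a count of 0. The highest FPKM among these 5 genes was 24.7 in the liver library and 2.29 in the small intestine library.

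Matrix genes were most abundant in the small intestine library. The 100 matrix genes took 1.04% of its counts, against 0.437% for salivary glands and 0.476% for liver. Their median FPKM was 4.63 for small intestine, 1.86 for salivary glands and 0.525 for liver, whereas the median of all genes was 2.16, 1.76 and 1.89 in the same order. An FPKM above 1 was reached by 85 of the 128 genes in small intestine, by 66 in salivary glands and by 50 in liver. The share of all genes above that level was 59.4%, 56.3% and 57.0%. An FPKM above 1 in all 3 libraries was found for 39 of the 128 genes and for 46.9% of all genes, and 6 of the 128 had a count of 0 in all 3.

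Folds between libraries were taken from counts scaled by the trimmed mean of M-values (TMM), and a gene was called where its fold was at least 2 and at least 1 library of the pair had 10 or more counts. For calls, medians and folds written as "at least", a count under 3 was set to 3, which makes such a fold a lower bound. A ratio given with a range is that of the scaled counts as they stand, also where a count was 1 or 2, and the range is then wide. The ranges are exact 95% intervals that cover counting error only, and PCR reads without molecular identifiers are not independent molecules. Between the small intestine and liver libraries 104 of the 128 genes could be compared, of which 69 were higher in the small intestine library, beside 24.2% of all genes, and 13 were lower, beside 23.9%. The median log2 fold was 2.70, beside -0.08 over all genes. Between the salivary gland and liver libraries 47 of 99 were higher in the salivary gland library, beside 22.9% of all genes, and 26 were lower, beside 24.9%. The share that was lower, 26.3%, lay near that of all genes. Between the small intestine and salivary gland libraries 66 of 104 were higher in the small intestine library, beside 20.6% of all genes, and 12 were lower, beside 16.9%. The median log2 fold was 0.70 for the salivary glands over the liver and 1.47 for the small intestine over the salivary glands, beside -0.07 and -0.02 over all genes.

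**Figure D1:**
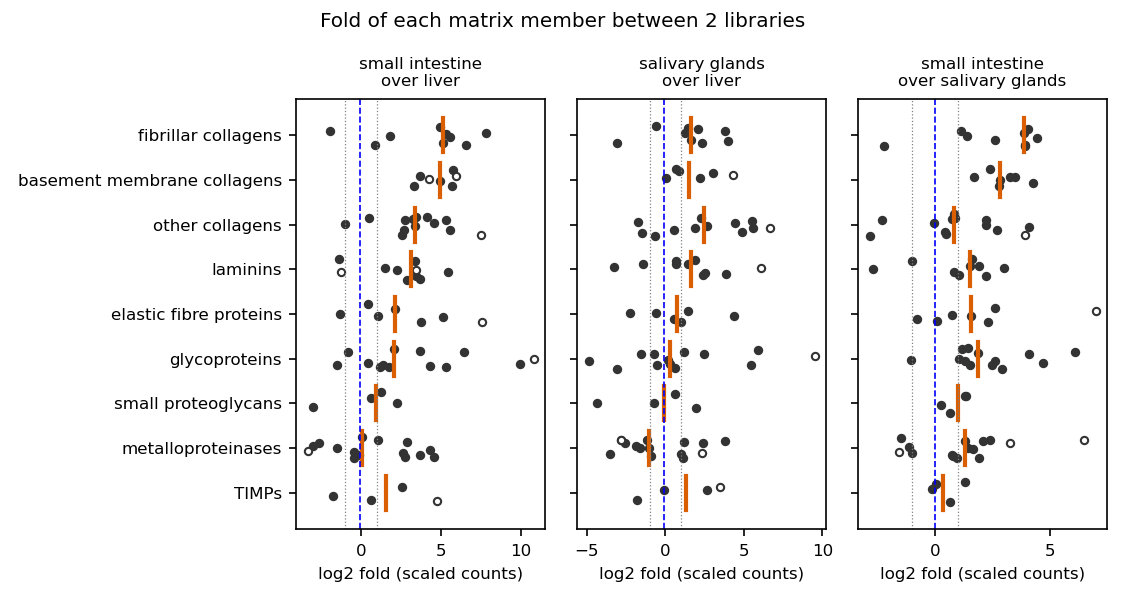
Log2 fold of each matrix gene between a pair of libraries (horizontal axis, TMM-scaled counts) by role (vertical axis), with open circles where a count under 3 was set to 3, orange bars at the median of a role, a dashed blue line at the median of all genes and dotted lines at a 2-fold difference. In the small intestine over liver panel the medians of the 3 groups of collagens lie at 5.13, 4.96 and 3.37, and that of the metalloproteinases at 0.03.

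A library stood at least 2-fold above both others for 69 of the 106 genes with 10 or more counts somewhere. This was the small intestine library for 49 genes, beside 12.2% of all genes, the liver library for 12, beside 15.8%, and the salivary gland library for 8, beside 9.00%. The 12 genes of the liver library were COL5A3, COL14A1-like, LAMA1, LAMB1, TNC, BGN, TIMP1, MMP9, MMP17, MMP25-like, MMP27 and a SLIT3-like gene. The 8 of the salivary gland library were COL8A2, COL9A2, COL11A2, LAMA3, LAMB3, MMP3, MMP24 and MEGF10.

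Fibrillar collagens were far more abundant in the small intestine library. COL1A1, which encodes the main chain of type I collagen, had FPKM values of 50.8 for small intestine, 2.64 for salivary glands and 0.202 for liver. COL1A2, which encodes the partner chain, had FPKM values of 28.0, 1.61 and 0.548 in the same order. COL3A1, the chain of type III collagen, had FPKM values of 88.9, 3.53 and 0.819. All 3 genes fell in the same order across the libraries. On scaled counts the small intestine library exceeded the liver library 231 times for COL1A1 (149 to 378), 40.4 times for COL1A2 (30.4 to 55.0) and 93.1 times for COL3A1 (75.6 to 116). It exceeded the salivary gland library 16.8 times for COL1A1 (14.5 to 19.7). The salivary gland library in turn exceeded the liver library 13.7 times for COL1A1 (8.62 to 23.0), a gene with 20 counts in the liver.

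The ratio of the type I chains was not the same in all libraries. Per kilobase of gene model, COL1A1 had 2.06 times the counts of COL1A2 in the small intestine library (1.93 to 2.21) and 1.79 times in the salivary gland library (1.38 to 2.33). In the liver library the ratio was 0.361 (0.204 to 0.619), from 20 counts of COL1A1 and 49 of COL1A2. Further gene models named after these chains in NR lie outside the set and are left out of the ratios.

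The type V chains, which start and thin collagen fibrils, did not move together. COL5A1 had FPKM values of 68.6 for small intestine, 4.0 for salivary glands and 1.71 for liver. COL5A2, the neighbour of COL3A1 on the same scaffold, had FPKM values of 10.4, 1.44 and 0.285. COL5A3 went the other way, with FPKM values of 5.67, 2.40 and 20.2. COL5A1 was thus 35.0 times higher in the small intestine than in the liver library (31.5 to 39.0), and COL5A3 was 3.86 times higher in the liver library (3.48 to 4.29). A short second model named COL5A1-like followed COL5A1, with FPKM values of 54.9, 3.28 and 0.990.

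COL11A2, a minor fibrillar chain best known from cartilage, was highest in the salivary gland library. Its FPKM values were 3.32 for small intestine, 13.2 for salivary glands and 0.730 for liver. The salivary gland library exceeded the small intestine library 4.64 times (4.07 to 5.29) and the liver library 16.2 times (13.5 to 19.4). COL27A1 had FPKM values of 9.37, 2.78 and 4.66 and differed from the liver library by less than 2-fold in both other libraries. COL2A1, the main cartilage collagen, had 3, 2 and 0 counts, and COL11A1 and COL24A1 had at most 6. In all, 7 of the 9 fibrillar collagens compared were higher in the small intestine than in the liver library, beside 24.2% of all genes. COL5A3 was lower, beside 23.9% of all genes, and COL27A1 was neither.

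Type IV collagen, the network former of basement membranes, gave the most abundant collagen of the data. COL4A1 had FPKM values of 196 for small intestine, 10.3 for salivary glands and 6.0 for liver. COL4A2, its partner in the common network, had FPKM values of 108, 9.75 and 8.61. Both were high in the small intestine library alone, by 31.2 times over the liver for COL4A1 (28.9 to 33.7) and 10.1 times for COL4A2 (9.53 to 10.7). Between the salivary gland and liver libraries they differed by 1.61 times (1.45 to 1.79) and 1.04 times (0.953 to 1.13), under the 2-fold threshold. Counts per kilobase of COL4A1 were 1.47 times those of COL4A2 in the small intestine library (1.43 to 1.51), 0.740 times in the salivary gland library (0.672 to 0.816) and 0.476 times in the liver library (0.434 to 0.522). By FPKM the ratios were 1.82, 1.06 and 0.696, so the direction in the salivary gland library depended on the measure.

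The other type IV chains, which form networks in specialised membranes, were much lower. COL4A5 had FPKM values of 3.56 for small intestine, 0.443 for salivary glands and 0.242 for liver. COL4A3 and COL4A4 lay side by side on scaffold NW_016527694.1, at 360921 to 426629 on the plus strand and at 189128 to 290053 on the minus strand, on the scaffolds of the deposited gene models, whose build is not named. COL4A3 had FPKM values of 3.06, 0.247 and 0.0569, and COL4A4 had 2.07, 0.390 and 0.0354. COL4A6 had FPKM values of 3.03, 0.761 and 0.0149, the last from 2 counts, and the ratio of the small intestine to the liver library was 93.9 (25.4 to 785). A COL4A6-like model had 33, 7 and 0 counts. All 7 basement membrane collagens of the set, which are type IV models, stood at least 2-fold higher in the small intestine library than in each of the others. This held for 12.2% of all genes. The summed FPKM of the 7 was 319, 22.2 and 15.0. COL18A1 (gene7744), a basement membrane collagen outside the set, was highest in the liver library, with FPKM values of 9.22, 5.78 and 15.4.

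**Figure D2:**
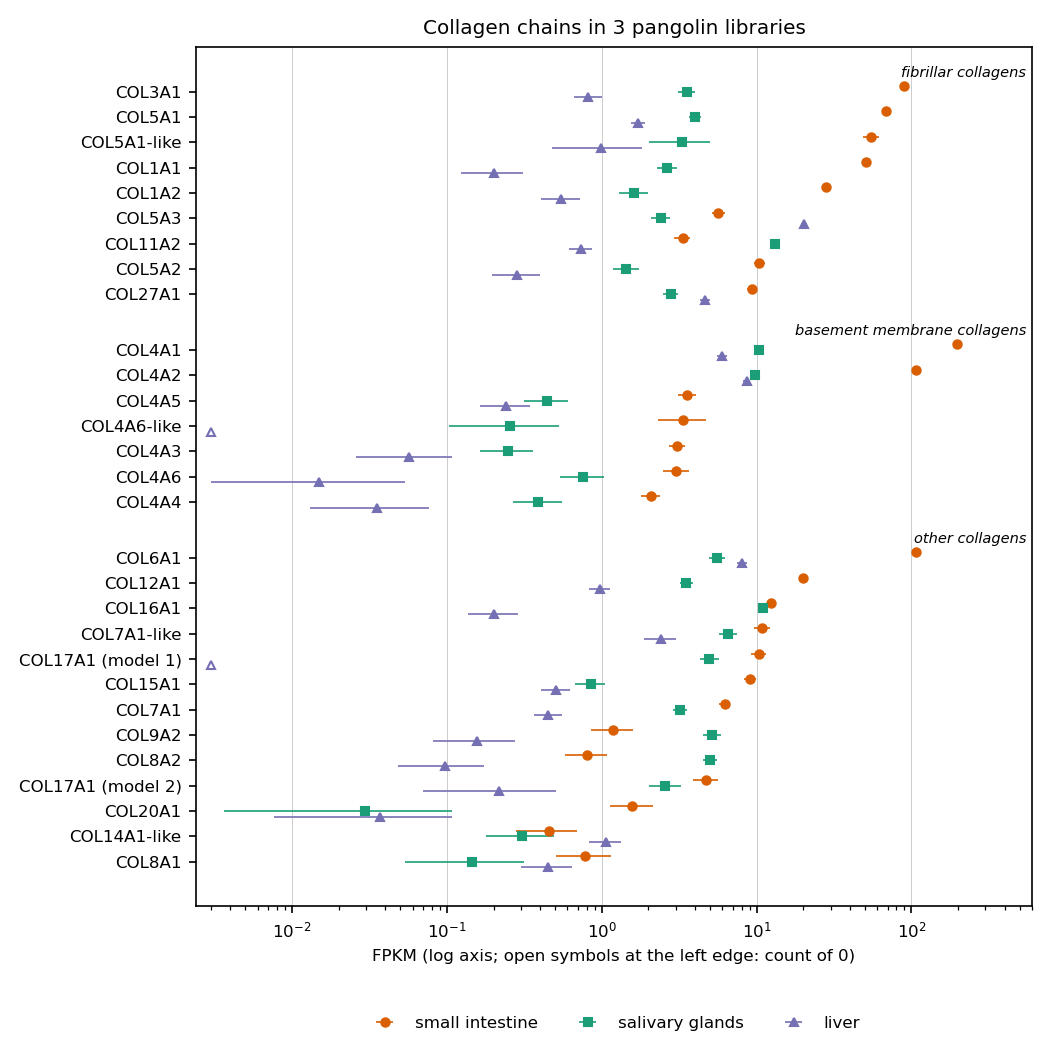
FPKM (log axis) of the collagen genes with 10 or more counts in at least 1 library, by role, in the small intestine (circles), salivary gland (squares) and liver (triangles) libraries, with bars for exact 95% counting intervals and open symbols for a count of 0. COL4A1 stands furthest to the right at 196 in the small intestine library, and COL5A3 is highest in the liver library at 20.2.

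Among the other collagens COL6A1, a chain of the beaded filaments that link cells to the matrix, was the most abundant. It had FPKM values of 108 for small intestine, 5.56 for salivary glands and 8.06 for liver, and exceeded the liver library 10.8 times (9.95 to 11.8). The genes named in NR as its partners COL6A2 (gene20273) and COL6A3 (gene17753) lie outside the set, since Swiss-Prot filed both under VIT. COL6A2 had FPKM values of 91.4, 10.6 and 5.53, and COL6A3 had 9.79, 1.34 and 0.829. These 3 chains were highest in the small intestine library, which did not hold for the minor chains alpha-4(VI) (gene12639), with 28, 75 and 38 counts, and alpha-6(VI) (gene17648), with 3, 11 and 12. The alpha-5(VI) gene had a count of 0 in all libraries.

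COL12A1, which coats type I fibrils, had FPKM values of 19.8 for small intestine, 3.52 for salivary glands and 0.969 for liver. COL15A1, found next to basement membranes of muscle and vessels, had FPKM values of 9.07, 0.848 and 0.503. COL16A1 was as high in the salivary gland library, with FPKM values of 12.4, 10.9 and 0.202. Its counts in the small intestine and salivary gland libraries were in a ratio of 0.981 (0.895 to 1.08), while both exceeded the liver library, by 47.5 times (33.2 to 70.3) and 48.4 times (33.9 to 71.6).

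The collagens that anchor epithelium to its base were lowest in the liver library. COL17A1, a transmembrane collagen of hemidesmosomes, was split over 2 models. The larger of them had 320 counts for small intestine, 201 for salivary glands and 0 for liver, so it was at least 181 times and at least 101 times higher than in the liver. The smaller had 118, 73 and 5 counts. COL7A1, the collagen of anchoring fibrils, was also split, over neighbouring models 116 bases apart, with FPKM values of 6.22, 3.20 and 0.451 in the longer. The FPKM of the other model was 1.74 times that in small intestine, 2.04 times in salivary glands and 5.33 times in liver.

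COL8A2 and COL9A2 were, like COL11A2, at least 2-fold higher in the salivary gland library than in both others. COL8A2, a network collagen known from the cornea and vessels, had FPKM values of 0.802 for small intestine, 5.01 for salivary glands and 0.0972 for liver. COL9A2, known from cartilage, had FPKM values of 1.18, 5.16 and 0.157. The salivary gland library exceeded the small intestine library 7.22 times for COL8A2 (5.21 to 10.3) and 4.98 times for COL9A2 (3.57 to 7.09). COL8A1 differed, with FPKM values of 0.779, 0.145 and 0.448. COL20A1 had FPKM values of 1.57, 0.0298 and 0.0370, COL14A1-like had 0.453, 0.305 and 1.06, and COL9A1, COL10A1 and COL25A1 had at most 4 counts.

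Over all 35 collagens the summed FPKM was 825 for small intestine, 106 for salivary glands and 59.8 for liver. Of the 29 that could be compared, 25 were higher in the small intestine than in the liver library, beside 24.2% of all genes, and 2 were lower, COL5A3 and COL14A1-like, beside 23.9%. The salivary gland library was higher than the liver library for 18 of 27, beside 22.9% of all genes, and lower for 3, COL5A3, COL8A1 and COL14A1-like, beside 24.9%.

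Laminins, the cross-shaped trimers of alpha, beta and gamma chains that nucleate the basement membrane, differed chain by chain. LAMC1, the common gamma chain, had FPKM values of 28.4 for small intestine, 3.26 for salivary glands and 2.24 for liver. LAMA5, the widespread epithelial alpha chain, had FPKM values of 26, 11.3 and 3.06. LAMB1, the common beta chain, was highest in the liver library, with FPKM values of 29.5, 7.69 and 77.7. The liver library exceeded the small intestine library 2.59 times (2.40 to 2.80) and the salivary gland library 9.80 times (8.60 to 11.2) for LAMB1.

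Counts per kilobase of LAMB1 were 1.15 times those of LAMC1 in the small intestine library (1.06 to 1.25), 2.43 times in the salivary gland library (2.04 to 2.90) and 38.7 times in the liver library (34.1 to 44.1). LAMB1 made the laminins the role that turned most on a single gene. Their summed FPKM was 1.40 times higher in the small intestine than in the liver library with LAMB1 and 8.92 times higher without it. A second LAMB1 model outside the set, gene15739, showed the same order, with FPKM values of 15.5, 3.58 and 42.9.

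LAMA4 and LAMA2, the alpha chains of vessels and muscle, were highest in the small intestine library. LAMA4 had FPKM values of 10.1 for small intestine, 3.32 for salivary glands and 1.08 for liver, and LAMA2 had 11, 2.06 and 0.968. LAMA4 exceeded the liver library 10.4 times in the small intestine library (8.27 to 13.2), and LAMA2 did so 7.43 times (5.33 to 10.6). LAMC3 followed, with FPKM values of 4.56, 1.90 and 0.337.

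LAMA3 and LAMB3, chains of laminins that hold epithelia to their base, were highest in the salivary gland library. LAMA3 had FPKM values of 1.46 for small intestine, 9.06 for salivary glands and 0.0101 for liver, the last from 1 count. LAMB3 had FPKM values of 9.94, 17.3 and 2.70. The salivary gland library exceeded the small intestine library 6.41 times for LAMA3 (3.95 to 11.0) and 2.03 times for LAMB3 (1.54 to 2.70). The call for LAMB3 was lost with folds of FPKM (log2 fold of small intestine over salivary glands -0.79). LAMA1 had 1, 3 and 12 counts and its folds were under 2 by FPKM (log2 -0.68 and -0.49 for the small intestine and salivary glands over the liver), LAMB4 had 4, 0 and 0, and a second LAMB3 model had a count of 0 in all libraries.

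The FPKM of a gene did not always follow from its count and the length in the table. Relative to the median of its library, it departed by more than 1.5 times for 9 of 101 genes of the set in small intestine, 10 of 91 in salivary glands and 32 of 81 in liver. Among all genes with 10 or more counts the shares were 12.1%, 13.1% and 22.2%, and in the liver library all but 2 of the 32 lay below the level expected from the count. LAMA2 and LAMA3 lay above it in the small intestine library, by 3.31 and 3.45 times. The departure also differed between libraries for the same gene. For COL1A2 the FPKM was 0.894 of the expected level in small intestine, 0.790 in salivary glands and 0.666 in liver. For LUM the order was the reverse, at 1.13, 1.19 and 1.29. Levels by FPKM carry this limit between genes and between libraries, as do the medians, sums and numbers of genes above a given FPKM. This is why the folds are given on counts. The chain ratios use counts over the length in the table, so the limit between genes holds for them too. Their ranges do not cover it.

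**Figure D3:**
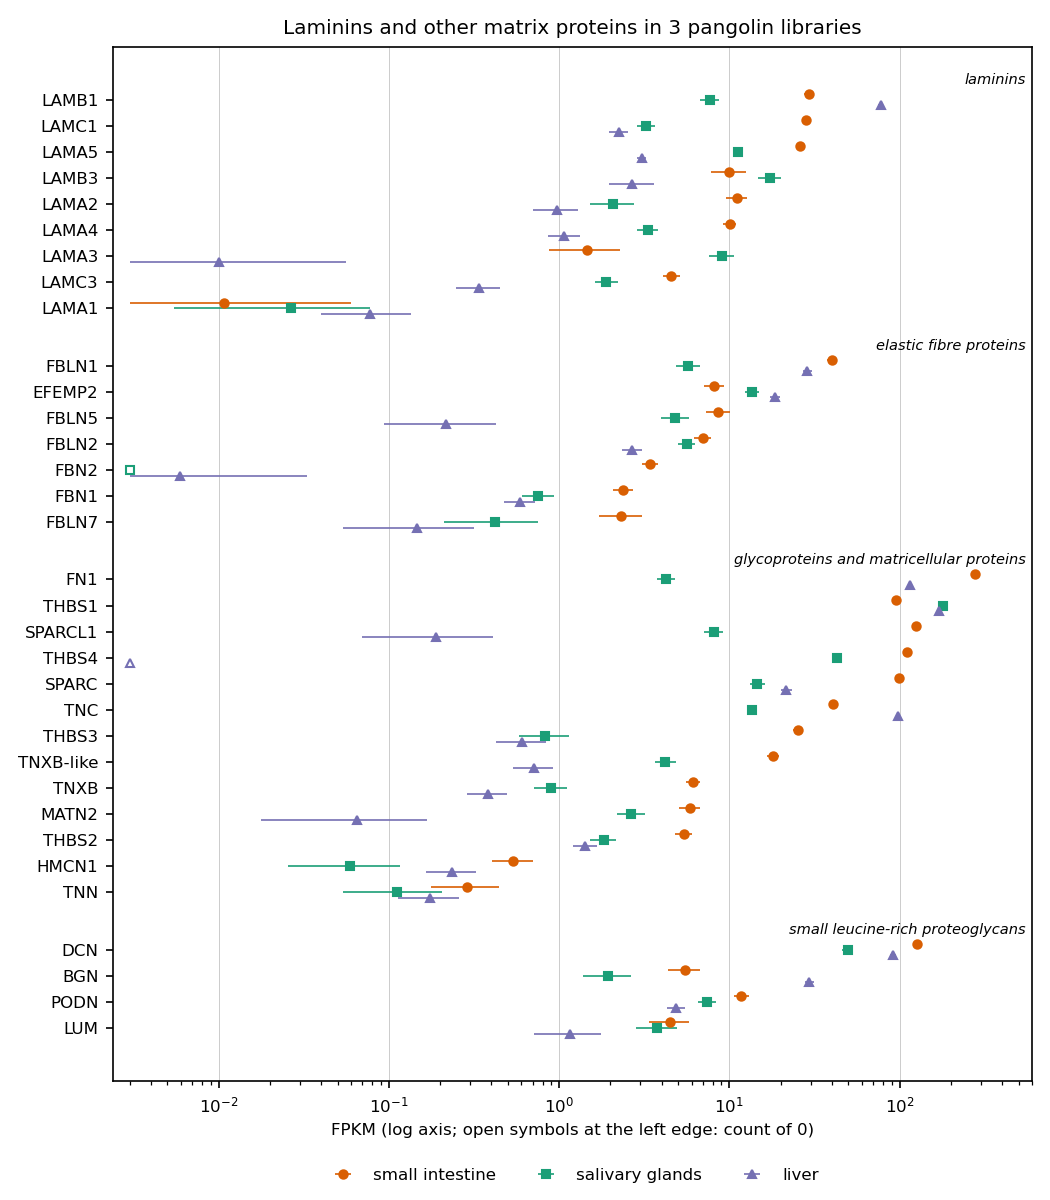
FPKM (log axis) of laminins, elastic fibre proteins, glycoproteins and small leucine-rich proteoglycans with 10 or more counts in at least 1 library, drawn as for the collagens, with circles for the small intestine, squares for the salivary gland and triangles for the liver library and bars for exact 95% counting intervals. LAMB1, TNC and BGN are highest in the liver library, at 77.7, 97.4 and 29.5, and FN1 lies at 276 in the small intestine library and at 4.26 in the salivary gland library.

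FN1, which encodes fibronectin, had the highest FPKM of the matrix genes of the small intestine library. Its FPKM values were 276 for small intestine, 4.26 for salivary glands and 116 for liver. The small intestine and liver libraries were high and the salivary gland library was low, 67.8 times below the small intestine library (60.2 to 76.6) and 29.6 times below the liver library (26.3 to 33.5). The small intestine library exceeded the liver library 2.29 times (2.23 to 2.34), which fell below 2-fold with scaling by library size alone (log2 fold 0.95).

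The thrombospondins, secreted glycoproteins that bind matrix and cells, took different patterns. THBS1 was high in all libraries, with FPKM values of 96.0 for small intestine, 179 for salivary glands and 170 for liver, and was the most abundant matrix gene in both of the latter. THBS4, known from tendon and muscle, had an FPKM of 111 and 42.8 and a count of 0 in the liver library, against 3203 and 1458 counts in the others. The small intestine library was thus at least 1807 times and the salivary gland library at least 732 times above the liver library, the largest bound in the set. THBS3 had FPKM values of 25.2, 0.825 and 0.606, and THBS2 had 5.40, 1.83 and 1.43.

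SPARC and its relative SPARCL1, matricellular proteins that bind collagen, were both highest in the small intestine library. SPARC had FPKM values of 99.0 for small intestine, 14.6 for salivary glands and 21.6 for liver. SPARCL1 had FPKM values of 126, 8.10 and 0.189, the last from 6 counts. The liver library was 4.19 times lower than the small intestine library for SPARC (3.85 to 4.55) and 1008 times lower for SPARCL1 (463 to 2748).

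Of the tenascins, large glycoproteins that loosen adhesion, TNC was highest in the liver library and tenascin-X in the small intestine library. TNC had FPKM values of 40.9 for small intestine, 13.7 for salivary glands and 97.4 for liver. The liver library exceeded the small intestine library 2.93 times (2.81 to 3.05) and the salivary gland library 8.31 times (7.81 to 8.84). The longer of the TNXB models had FPKM values of 6.14, 0.895 and 0.380, and the other had 18.1, 4.21 and 0.710. TNN and TNR had at most 25 counts in any library. MATN2, an adaptor protein of filaments, had FPKM values of 5.85, 2.65 and 0.0652, the last from 4 counts, and HMCN1 had 0.536, 0.0593 and 0.236.

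Of the 7 elastic fibre genes compared between the small intestine and liver libraries, 5 were higher in the small intestine library and 1 was lower, beside 24.2% and 23.9% of all genes. FBN1, which encodes the backbone of microfibrils, had FPKM values of 2.38 for small intestine, 0.754 for salivary glands and 0.590 for liver. FBN2 was found almost wholly in the small intestine library, with 342, 0 and 1 counts. FBLN5, which binds elastin, had FPKM values of 8.60, 4.82 and 0.216. FBLN1 was high in 2 libraries, with FPKM values of 40.0, 5.74 and 28.8, and lay 4.68 times lower in the salivary gland than in the liver library (3.95 to 5.59). EFEMP2, also called fibulin-4, was highest in the liver library, with FPKM values of 8.18, 13.7 and 18.5, 2.53 times above the small intestine library (2.18 to 2.95). FBLN2 had FPKM values of 6.97, 5.61 and 2.70, and FBLN7 had 2.32, 0.421 and 0.146. A FBLN5-like gene had 0, 3 and 0 counts.

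The small leucine-rich proteoglycans, which bind and space collagen fibrils, were less tied to the small intestine library than the collagens. DCN, which encodes decorin, had FPKM values of 126 for small intestine, 49.5 for salivary glands and 91.4 for liver, and was under 2-fold apart between the small intestine and liver libraries, at 1.54 times (1.45 to 1.65). BGN, which encodes biglycan, had FPKM values of 5.47, 1.94 and 29.5. The liver library exceeded the small intestine library 8.26 times (6.62 to 10.4) and the salivary gland library 20.2 times (14.7 to 28.6) for BGN. LUM, which encodes lumican and lies next to DCN, had FPKM values of 4.46, 3.78 and 1.15.

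DCN and BGN did not keep the order of libraries of COL1A1, while LUM did. Counts per kilobase of DCN were 23.4 times those of BGN in the small intestine library (18.8 to 29.4), 22.7 times in the salivary gland library (16.4 to 32.1) and 1.84 times in the liver library (1.71 to 1.98). PODN, which also kept that order, had FPKM values of 11.8, 7.40 and 4.86, and a PODNL1-like gene had at most 8 counts. The summed FPKM of the 5 genes was 148, 63.4 and 127, where that of the fibrillar collagens was 320, 34.9 and 30.2.

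**Figure D4:**
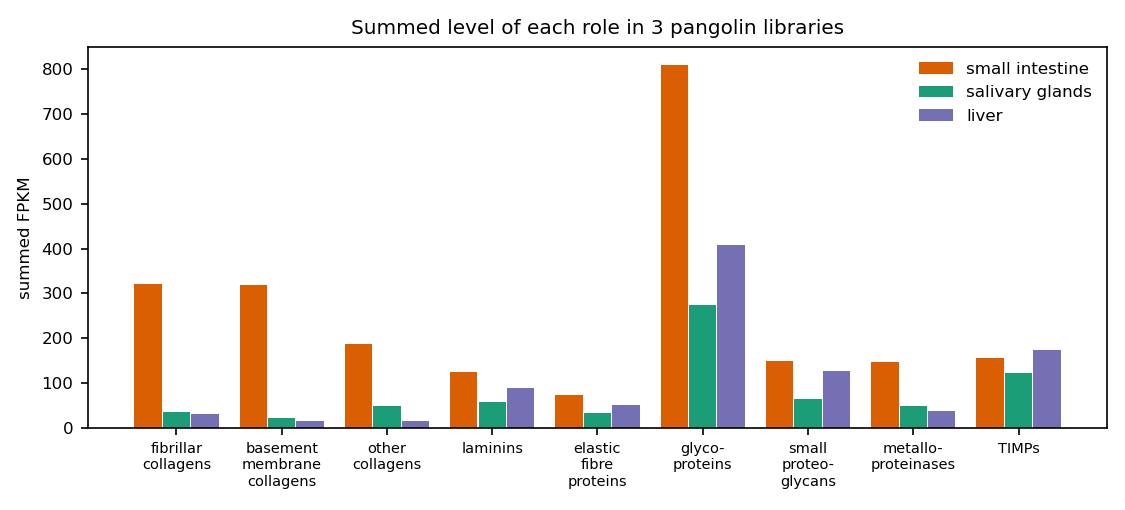
Summed FPKM (vertical axis, from 0) of the matrix genes of each role in the small intestine (orange), salivary gland (green) and liver (purple) libraries, 1 library each, with no error bars. The 3 groups of collagens reach 320, 319 and 186 in the small intestine library and at most 48.9 in the others, whereas the TIMPs reach 156, 122 and 174.

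Metalloproteinases were low apart from a few, and their members went both ways. MMP14, a membrane-bound enzyme that activates MMP2, had FPKM values of 61.3 for small intestine, 17.0 for salivary glands and 7.86 for liver. MMP2, the gelatinase of connective tissue, had FPKM values of 40.8, 13.6 and 5.91. The small intestine library exceeded the liver library 6.76 times for MMP14 (6.15 to 7.44) and 6.15 times for MMP2 (5.39 to 7.05). Both genes kept the same order of libraries as COL1A1.

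MMP12, the macrophage elastase, was high in the small intestine library alone, with FPKM values of 15.2 there, 0.119 for salivary glands and 1.48 for liver. MMP15 and MMP11 were also highest there, with FPKM values of 10.5, 2.26 and 0.461 for MMP15 and of 6.22, 3.20 and 0.195 for MMP11. MMP9, the gelatinase of neutrophils and macrophages, was highest in the liver library, with FPKM values of 0.738, 1.40 and 3.99, 6.20 times above the small intestine library (3.71 to 11.1). MMP17, MMP25-like and MMP27 were highest in the liver library too, at FPKM values of 1.74, 3.76 and 2.25.

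MMP24 and MMP3 were at least 2-fold higher in the salivary gland library than in both others, though MMP14 and MMP2 were more abundant there. MMP24 had FPKM values of 2.11 for small intestine, 5.18 for salivary glands and 2.52 for liver. MMP3 had 0, 10 and 1 counts. MMP16, MMP19, MMP21, MMP23 and MMP28 stayed at an FPKM of at most 3.4, and MMP23 had that level in the small intestine library. Of the 22 metalloproteinases, 15 could be compared between the small intestine and liver libraries, with 7 higher, 4 lower and 4 neither, beside 24.2% of all genes higher and 23.9% lower. Between the salivary gland and liver libraries 6 of 15 were higher and 8 were lower, beside 22.9% and 24.9% of all genes. MMP1, MMP7, MMP13-like, MMP20-like, MMP25 and MMP26 had fewer than 10 counts in each library.

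**Figure D5:**
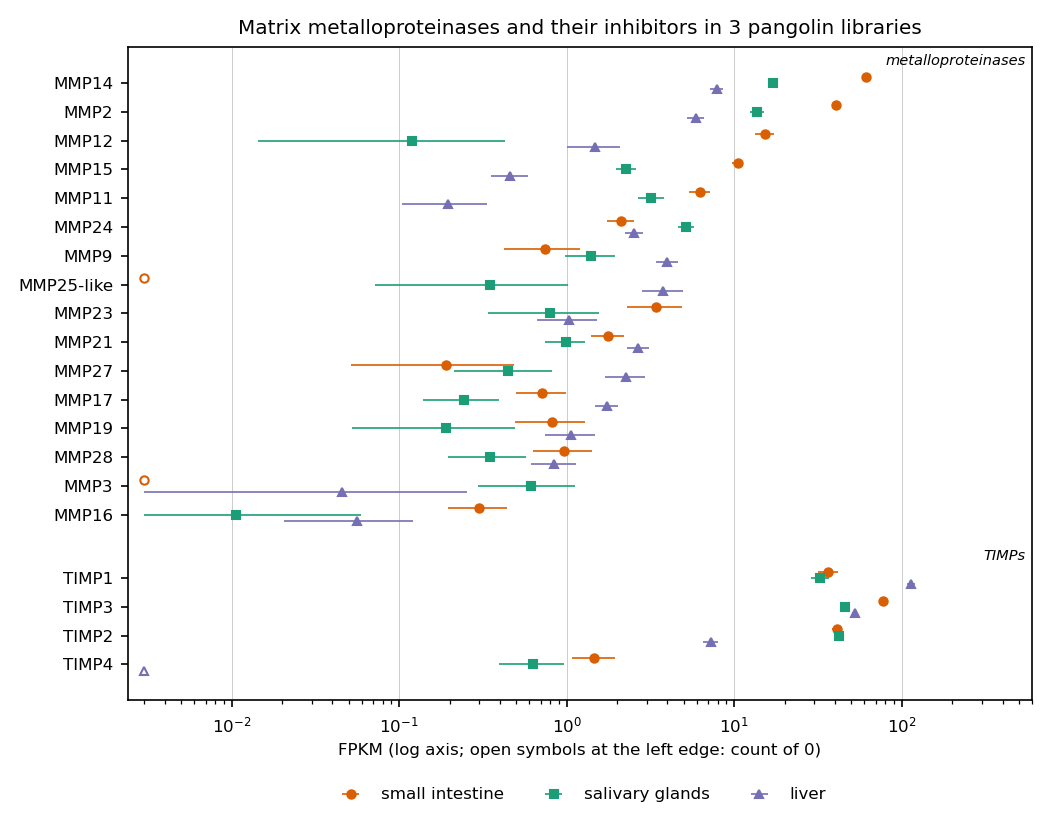
FPKM (log axis) of the metalloproteinases with 10 or more counts in at least 1 library and of the 4 TIMPs, in the small intestine (circles), salivary gland (squares) and liver (triangles) libraries, with bars for exact 95% counting intervals and open symbols for a count of 0. TIMP1 is highest in the liver library at 114 and TIMP2 lowest there at 7.22.

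The inhibitors were abundant in every library but not the same ones. TIMP1 had FPKM values of 36.4 for small intestine, 32.6 for salivary glands and 114 for liver. TIMP2, which also takes part in the activation of MMP2, had FPKM values of 40.9, 42.5 and 7.22. TIMP3, which binds to the matrix itself, had FPKM values of 76.9, 46.2 and 52.3. The liver library was thus high for TIMP1, by 3.41 times over the small intestine library (2.95 to 3.95), and low for TIMP2, by 5.76 times (5.09 to 6.52). TIMP3 differed by less than 2-fold in each of the 3 comparisons, and TIMP4 had 48, 22 and 0 counts.

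Counts per kilobase of MMP2 were 1.11 times those of TIMP2 in the small intestine library (1.02 to 1.21), 0.376 times in the salivary gland library (0.337 to 0.420) and 1.04 times in the liver library (0.886 to 1.22). By FPKM the ratios were 0.997, 0.321 and 0.818. Between the small intestine and salivary gland libraries TIMP2 differed by 0.910 times (0.841 to 0.985), while MMP2 was 2.69 times higher in the small intestine library (2.40 to 3.02). The latter fell below 2-fold with scaling by library size alone (log2 fold 0.97).

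Of the 28 genes with other products, 22 could be compared between the small intestine and liver libraries. A total of 10 were higher, 1 was lower and 11 were neither, beside 24.2% and 23.9% of all genes higher and lower, with a median log2 fold of 0.64, against 2.82 for the matrix genes. The arterial smooth muscle receptor NOTCH3 had FPKM values of 16.9 for small intestine, 4.71 for salivary glands and 0.544 for liver. NOTCH1, by contrast, had FPKM values of 15.0, 4.06 and 8.09, and NOTCH2 had 14.2, 6.89 and 13.4. WIF1, a secreted Wnt inhibitor, had FPKM values of 17.0, 1.22 and 1.49. SCUBE2, a secreted protein that helps release Hedgehog, had FPKM values of 11.2, 7.38 and 0.179. A gene named SLIT3-like, after an axon guidance protein, was the 1 that was lower in the small intestine than in the liver library, with FPKM values of 2.84, 0.358 and 7.27. PEAR1, a receptor of platelets and endothelium, had FPKM values of 3.28, 0.485 and 4.11. SEL1L, a part of the machinery that degrades misfolded proteins, had 10.2, 22.2 and 19.0. CRIM1, a transmembrane protein that binds BMPs, had 17.4, 25.2 and 12.6. COL4A3BP, a ceramide carrier that carries a collagen only in its name, had FPKM values of 7.18, 6.41 and 7.90, and its like-named second gene also stayed within 2-fold in each pair. MEGF6, UNC5A, UNC5C, UNC5D, TENM2, TENM4 and SCUBE1 were also higher in the small intestine than in the liver library. CCBE1, MEGF9, TENM3 and UNC5B were within 2-fold in that pair, MEGF10 had at most 11 counts, and C1QL3, MEGF6-like, MEGF11, SCUBE3 and TENM1 had at most 7.

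Other genes of the matrix pathway were read from 4 lists, matched by Swiss-Prot symbol and leaving out the genes above. Of 123 compared between the small intestine and liver libraries 64 were higher in the small intestine library and 19 were lower, beside 24.2% and 23.9% of all genes, with a median log2 fold of 1.16, beside -0.08. Between the salivary gland and liver libraries 38 of 113 were higher and 39 were lower, beside 22.9% and 24.9% of all genes, with a median log2 fold of -0.10, beside -0.07. Between the small intestine and salivary gland libraries 65 of 120 were higher and 13 were lower, beside 20.6% and 16.9% of all genes.

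Among genes that fold and modify collagen, P4HB and PPIB, which also serve other proteins, were the most abundant and were highest in the liver library. P4HB, a subunit of the prolyl 4-hydroxylase and a general disulfide isomerase, had FPKM values of 197 for small intestine, 266 for salivary glands and 686 for liver. PPIB, a proline isomerase of the endoplasmic reticulum, had FPKM values of 177, 203 and 482. A gene with the symbol ADAMTS2, named ADAMTS-like protein 4 in NR, had FPKM values of 26, 46.9 and 41.7. SERPINH1, the chaperone specific to collagen, had FPKM values of 23.5, 8.94 and 12.4. Over the list 19 of 38 were higher in the small intestine than in the liver library, beside 24.2% of all genes. A total of 6 were lower, beside 23.9%. These counts include genes with the symbol ADAMTS2 that NR names as relatives, such as ADAMTS13, ADAMTS16 and ADAMTS19, so the list also holds genes of other kinds. Matched by KEGG symbol, 17 of 32 were higher and 4 were lower. The summed FPKM of 640, 648 and 1373 rested mostly on P4HB and PPIB.

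Matrix receptors were higher in the small intestine library for 21 of 36 genes and lower for 4 when compared with the liver library, beside 24.2% and 23.9% of all genes. ITGB1, the common beta subunit of the collagen and laminin integrins, had FPKM values of 154, 53.0 and 65.8. The gene with the symbol SDC4, a heparan sulfate proteoglycan of the cell surface, whose NR entry is a protein of no given function, was highest in the liver library, with FPKM values of 45.0, 80.8 and 159. CD44, a hyaluronan receptor, had FPKM values of 71.8, 31.6 and 9.59. Genes of further basement membrane and matrix proteins were higher for 15 of 23 and lower for 1, against the same shares of all genes. The 1 lower gene was vitronectin (VTN, gene835), a plasma protein of the liver, with FPKM values of 1.12, 1.01 and 161. Matched by KEGG symbol, 17 of 27 were higher and 2 were lower. That match also found nidogen-1 (NID1), which was highest in the liver library, with FPKM values of 18.9, 6.92 and 65.9. LTBP4, which binds latent TGF-beta and carried the symbol LTBP2, had FPKM values of 48.4, 13.8 and 6.06. Of the 3 genes with the symbol ACAN, gene13541 is aggrecan by its NR entry, with 0, 3 and 1 counts, gene15715 is the phosphatase PTPRQ, and gene8684, the most abundant, is the nuclear protein SON, so the list also holds genes of other kinds.

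Among signals that act on matrix genes 9 of 26 (34.6%) were higher in the small intestine than in the liver library and 8 (30.8%) were lower, beside 24.2% and 23.9% of all genes. CTGF (gene10291), a matricellular growth factor, was high in the salivary gland library, with FPKM values of 12.7 for small intestine, 196 for salivary glands and 4.30 for liver. TGFBR2, a receptor for TGF-beta, was highest in the liver library, with FPKM values of 27.1, 11.4 and 108. BSG, which induces metalloproteinases, had FPKM values of 244, 207 and 182.

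Marker genes of other cell types were matched by the symbol in the KEGG entry. Smooth muscle markers were higher in the small intestine than in the liver library for 8 of 10 genes, beside 24.2% of all genes. Their summed FPKM was 3708 for small intestine, 416 for salivary glands and 75 for liver. TAGLN, an actin-binding protein, had FPKM values of 1023, 156 and 26.7. Desmin (DES) had FPKM values of 754, 9.86 and 0.205, and MYH11, the smooth muscle myosin, had 638, 41.1 and 0.299. Fibroblast markers were higher for 6 of 10 and lower for 0, beside 24.2% and 23.9% of all genes, with a summed FPKM of 85.1, 46.4 and 27. Among the 6 was FBLN7, itself a gene of the matrix set. DPT, which binds decorin, had FPKM values of 30.2, 8.17 and 0.135. THY1 was highest in the salivary gland library, with FPKM values of 10.7, 26.8 and 4.86. The more abundant PDGFRB model had 17.1, 3.94 and 10.9, whereas PDGFRA had 1.52, 0.927 and 1.88 and was highest in liver. Endothelial markers were higher for 4 of 13 and lower for 4, or 30.8% each way, near the 24.2% and 23.9% of all genes. Their sums were 160, 62.8 and 98.3, of which a mucin-6 gene with the KEGG symbol VWF made up 51.0, 0.046 and 0.010. The part of these cell types in the matrix differences was not tested.

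Macrophage markers were lower in the small intestine than in the liver library for 8 of 9 genes, beside 23.9% of all genes. Their summed FPKM was 64.4, 65.5 and 819, led by genes of complement C1q. Hepatic stellate cell markers were higher for 4 of 10 and lower for 4, beside 24.2% and 23.9% of all genes. Their summed FPKM of 887, 20.9 and 46.1 rested mostly on DES in the small intestine library. Among them RGS5 had FPKM values of 37.2, 3.79 and 2.97 and the more abundant HAND2 gene had 55.0, 0.292 and 6.68. LRAT, the vitamin A enzyme that defines stellate cells, had 0 counts in the small intestine and salivary gland libraries and 117 in the liver library. In whole tissue, fewer cells of a type and less RNA per cell cannot be told apart, and the parts of these cell types in the levels of LAMB1, TNC, BGN and TIMP1 were not tested.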

How the data were processed

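The 128 genes, the gene lists and the tests were chosen with earlier results of these data known. Clean reads were aligned with TopHat2 to the pangolin genome, and reads that fell outside annotated genes were assembled into new genes with Cufflinks. The authors deposited per gene and library a raw count, with the counting tool not given in the sources used here. They also deposited an FPKM value, for which the study names RSEM, and a scaled score that is the count times 1 factor per library for most genes, read here only to check the counts. The build was not named. The deposited annotation gives Swiss-Prot, NR and KEGG entries from BLASTX. No column compared tissues, and 0 columns of other samples were present.

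Counts were scaled with TMM factors (edgeR 4.0.16, R 4.3.3), which were 0.851 for small intestine, 1.17 for salivary glands and 1.0 for liver. The 3 libraries held 10158924, 8318686 and 14568778 counts, so that a floor of 3 counts equals 0.295, 0.361 and 0.206 CPM. With 1 library per tissue no test across genes was run as a main result. Intervals were exact Clopper-Pearson intervals (scipy 1.17.1). The rule for named genes took the 3 members of highest FPKM per role, the 5 largest called folds each way per pair, the main collagens, laminins, glycoproteins and TIMPs, members whose symbol was held by more than 1 gene, and the 3 genes of highest FPKM per list. Members outside it were named to account for low counts. SERPINH1, NID1, LRAT, FBLN7, PDGFRA, SLC5A1, FABP1, FABP2 and LCT were named after their values were seen. Folds were also run on simulated counts with known size ratios to check the code, and the outcome is not used here. The alternatives were library size only, DESeq2 size factors (version 1.42.0), FPKM folds with a pseudocount of 0.1, the MA-plot rule of DEGseq (which compares libraries, not conditions), other count and fold thresholds, TPM sums, and other choices of genes. Keeping matrix proteins only, leaving out gene models under 1000 bases and matching lists by KEGG symbol were alternatives chosen after seeing the data. A single laminin gene is not reported here by name, although it stays in the counts and sums.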

Additional observations from a re-analysis of the deposited data

How the results depend on the processing

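Of 156 recomputed summary values 119 stayed within 1.5 times or the counting interval, 35 moved and 2 changed direction. Leaving out symbols held by more than 1 gene kept 21 genes, 16 of them compared in each pair, of which 12 were higher and 2 lower in the small intestine than in the liver library, 7 higher and 5 lower in the salivary gland than in the liver library, and 10 higher and 2 lower in the small intestine than in the salivary gland library. As shares of the genes compared these were 75% and 12.5%, 43.8% and 31.2%, and 62.5% and 12.5%. The shares of all genes were 24.2% and 23.9%, 22.9% and 24.9%, and 20.6% and 16.9%. A 4-fold threshold left 4 genes lower in small intestine and 12 lower in salivary glands than in liver, and 38 higher and 4 lower in small intestine than in salivary glands, beside 10.6%, 12.0%, 11.5% and 5.99% of all genes. Adding genes named by NR raised the genes lower in small intestine than in salivary glands from 12 of 104 to 21 of 135, or 15.6%, beside 16.9% of all genes. With library size only, the median log2 fold of small intestine over salivary glands was 1.01 in place of 1.47, while the median over all genes was -0.32, 0.15 and -0.47 for the 3 pairs. An FPKM above 5 was reached by 36 genes in salivary glands and 26 in liver, and 81 had 10 or more counts in liver. Summed levels of small intestine over liver from TPM were 9.24 for fibrillar, 18.6 for basement membrane and 11.1 for other collagens, 1.22 for laminins, 1.23 for elastic fibre proteins, 1.73 for glycoproteins, 1.01 for small proteoglycans, 3.49 for metalloproteinases and 0.781 for TIMPs. Without the highest gene of each role they were 7.88, 13.7, 12.0, 8.92 without LAMB1, 1.82 for glycoproteins and 2.96 for metalloproteinases. The direction turned for small proteoglycans without DCN, at 0.613 in place of 1.16, and for TIMPs without TIMP1, at 2.0 in place of 0.896. For other pathway genes a 4-fold threshold left 9 lower in small intestine and 21 lower in salivary glands than in liver, and 33 higher and 3 lower in small intestine than in salivary glands, and with library size only 24 were lower in the last pair. Over single genes and pairs 241 of 242 kept their call with DESeq2 size factors, 227 with FPKM folds and 221 with library size only, and 0 reversed. The cause of the moves was not tested. No gene model named as new was a member. No paired analysis was possible because the 3 libraries come from 1 animal, with 1 library per tissue. Depth limits calls of genes under 10 counts.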

Other observations

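Proteins of the matrix were also encoded by genes that the symbol rule missed. By their NR entries 46 further genes were named after a protein of the rule, of which 29 had no Swiss-Prot symbol and 8 were new genes joined by the authors. LAMB2, the beta chain of muscle and vessel laminins, had an FPKM of 72.7 in small intestine, 19.0 in salivary glands and 5.07 in liver. COL18A1, the basement membrane collagen that releases endostatin, was highest in liver at an FPKM of 15.4, against 9.22 and 5.78. Periostin (POSTN), a matricellular protein of fibroblasts, had an FPKM of 14.0 in small intestine, 0.119 in salivary glands and 2.78 in liver.

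Several of these genes were second models of genes in the set. A further LAMA3 model (gene13107) had an FPKM of 2.30, 14.2 and 0.0508 and was highest in salivary glands, as was the LAMA3 model of the set. A further LAMB3 model (gene2036) had an FPKM of 9.46, 25.2 and 2.21, with the same order as its counterpart. A second COL6A1 model (gene26938) had an FPKM of 130, 3.68 and 8.84. A new gene named after COL1A1 was highest in salivary glands, with 33, 107 and 11 counts, unlike the COL1A1 of the set with 2725, 182 and 20. Of the genes named after COL1A2, a new gene had 0, 0 and 144 counts, gene2758 had 48, 62 and 163, and gene6086 had 9, 7 and 11. Unlike the COL1A2 of the set, the new gene and gene2758 were highest in liver. A new gene named after COL3A1 had 22, 18 and 6 counts. Genes split over several models are thus counted in parts, and the parts were not joined.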
